A study of Mus musculus with 21 samples.

Results

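The cytosolic ribosomal protein genes were described across 5 groups of activated mouse CD4 T cells. The members are the transcript clusters whose only gene symbol starts with Rpl, Rps or Rplp followed by a number, without the Rps6k kinases and without pseudogenes, and the rule found 21 of the 14860 genes tested. The rule used names and mean level over all arrays, not the comparison of groups. The 21 members were 8 proteins of the large subunit, the stalk protein Rplp0, 6 proteins of the small subunit, 5 paralogues and Rps19bp1. Rps19bp1 carries the name of a ribosomal protein that its product binds and is not itself part of the ribosome. In 33 further clusters a ribosomal protein symbol stands among several symbols, and these are not members.

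Cytosolic ribosomes translate nuclear mRNAs, and each holds a small subunit, which reads the mRNA, and a large subunit, which forms the peptide bond. Activated T cells build ribosomes as they grow and divide. The mRNAs of ribosomal proteins start with a run of pyrimidines, the TOP motif, through which mTOR and the RNA-binding protein Larp1 control their translation, and Myc drives ribosome production in proliferating lymphocytes. Ribosomal protein mRNAs also gave rise to many processed pseudogenes, so probes of a member may match such copies, and the values of single members are uncertain to that degree.

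The RNA of 21 samples of sorted cells was hybridised to Affymetrix mouse exon arrays, 1 array a sample. The cells came from cultured spleen cells of Marilyn mice, in which a transgenic receptor on T cells recognises the male HY antigen. Marilyn.Foxp3hCD2 mice carry human CD2 as a reporter of Foxp3, the transcription factor of regulatory T cells. Their cells were activated and left untreated (sorted as CD4+CD2, 5 arrays), or activated with TGFB and sorted as CD4+hCD2+ (5 arrays) or CD4+hCD2- (5 arrays). Cells of Marilyn.Foxp3-/- mice, which lack Foxp3, were activated and left untreated (3 arrays) or exposed to TGFB (3 arrays), both sorted as CD4+CD2. The labels do not say whether CD2 in that gate is the mouse or the human protein, and they give no age of the mice, dose of TGFB or length of culture. All groups share the Marilyn receptor and activation, so no group shows resting cells. No animal or culture is named for the biological replicates, so p-values measure only the spread between these samples, which may be technical. Study 1 holds reporter replicates 1 to 3, and study 2 holds reporter replicates 4 and 5 and all knockout arrays.

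The cluster shared by Foxp3 and the non-coding RNA Flicr ranged from 5.95 to 6.54 (log2) in untreated reporter cells, from 9.23 to 11.68 in hCD2+ cells and from 6.35 to 7.08 in hCD2- cells. In knockout cells it ranged from 6.8 to 7.17 untreated and from 8.26 to 8.9 with TGFB. Where its probes lie relative to the deleted sequence is not given in the sources used here, so this cluster does not check the knockout labels. All 6 measured CD4 T cell markers lay above the upper quartile of every array, and 0 measured markers of B cells, dendritic cells and macrophages, NK cells, granulocytes or erythroid cells did so. Of the 2 CD8 T cell markers, Cd8b1 lay above the upper quartile of every array, and Cd8a did so on every TGFB knockout array. Array lower quartiles (log2) were 4.93 to 5.02 in reporter and 5.61 to 5.68 in knockout samples, and levels are therefore compared only within a genotype. Array interquartile ranges ran from 2.01 to 3.14. Of the reporter arrays, 4 fell under 2.5, all with TGFB (hCD2- replicates 1, 3 and 4 and hCD2+ replicate 3). Knockout arrays also fell under 2.5, untreated replicates 1 and 2 (2.41 and 2.38) and TGFB replicate 1 (2.33). Below, the narrow arrays are the 4 reporter arrays, and no knockout array was left out as narrow. Without them only replicates 2 and 5 of the hCD2- cells remain, so calls there are also harder to reach.

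The sequence around the start of a gene holds the promoter and, in ribosomal protein genes, the pyrimidine run of the TOP motif. RefSeq promoter windows (GRCm38.p6) matched 18 of the 21 members. A run of at least 8 C or T within 20 bases of a start was found in 7 of the 18 (38.9%) and in 18.4% of all 27025 genes in the table. The motif CCGGAAG, read on both strands over the 300 bases of the window and recognised by ETS-family factors, was found in 5 of the 18 (27.8%) and in 9.93% of all genes. The reverse complement of this motif holds pyrimidines and may overlap a run. The windows below show 5 members that fell in a reporter comparison, with Rps18 beside them as a member that holds both features, the ETS motif outside the stretch shown, but was not called in any comparison. Each shows 60 bases before the annotated start and 30 bases from it on, on the strand of the gene, with runs of at least 8 pyrimidines and the ETS motif in capitals.
Rps27l, chr9:66946026-66946115, plus strand: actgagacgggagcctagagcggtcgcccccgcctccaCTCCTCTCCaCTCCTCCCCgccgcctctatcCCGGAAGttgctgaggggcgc
Rplp0, chr5:115559407-115559496, plus strand: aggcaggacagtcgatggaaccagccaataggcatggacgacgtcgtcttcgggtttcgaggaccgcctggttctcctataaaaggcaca
Rpl10a, chr17:28328505-28328594, plus strand: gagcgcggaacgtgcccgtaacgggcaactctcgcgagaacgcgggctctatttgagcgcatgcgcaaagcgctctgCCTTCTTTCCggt
Rpl23, chr11:97782410-97782499, minus strand: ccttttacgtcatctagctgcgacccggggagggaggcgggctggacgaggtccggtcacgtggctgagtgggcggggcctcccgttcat
Rps9, chr7:3703981-3704070, plus strand: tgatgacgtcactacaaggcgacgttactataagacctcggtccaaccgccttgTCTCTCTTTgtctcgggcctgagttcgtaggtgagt
Rps18, chr17:33955636-33955725, minus strand: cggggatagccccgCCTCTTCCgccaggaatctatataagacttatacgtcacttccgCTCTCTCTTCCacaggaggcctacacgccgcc
Rps9 and Rps18 have a pyrimidine run across the annotated start, and in Rps27l the run ends just before it. In Rpl10a the run begins inside the stretch searched but extends beyond it, and it did not enter the count. RefSeq gives a further start for Rps27l and for Rpl10a, whose windows are not shown. The Rplp0 and Rpl23 windows hold neither feature as spelled, which says only that these letters are not there. Rps3 and Rps19bp1, also described below, hold neither feature and are not shown, and Rps20 and Rpl8 had no entry.

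On the deposited log2 scale, part of the ribosomal protein genes fell in TGFB-treated reporter cells, and the paralogue Rps27l, the stalk gene Rplp0 and the large-subunit gene Rpl10a changed most among the members called in hCD2+ cells. In hCD2+ cells 6 of 21 members fell and 0 rose (limma, Benjamini-Hochberg adjusted p under 0.05, over all 14860 genes), beside 9.66% of all genes called lower and 1.94% called higher. In hCD2- cells 9 of 21 fell and 0 rose, beside 16.9% and 2.05%. The members with a log2 fold change below 0, called or not, were 19 of 21 in hCD2+ and 20 of 21 in hCD2- cells. The median over all genes also lay below 0 in both comparisons. The median log2 fold change over the members was -0.49 in hCD2+ cells against -0.066 over all genes, and -0.63 in hCD2- cells against -0.094. Both comparisons use the same untreated arrays, so their values are set side by side and not counted as separate evidence. In knockout cells 1 of 21 members, Rps27l, fell with TGFB and 0 rose, beside 1.85% and 0.895% of all genes, with a member median of -0.35 against -0.03. Fewer transcripts per cell and fewer cells with a transcript cannot be told apart in these sorted populations.

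**Figure D1:**
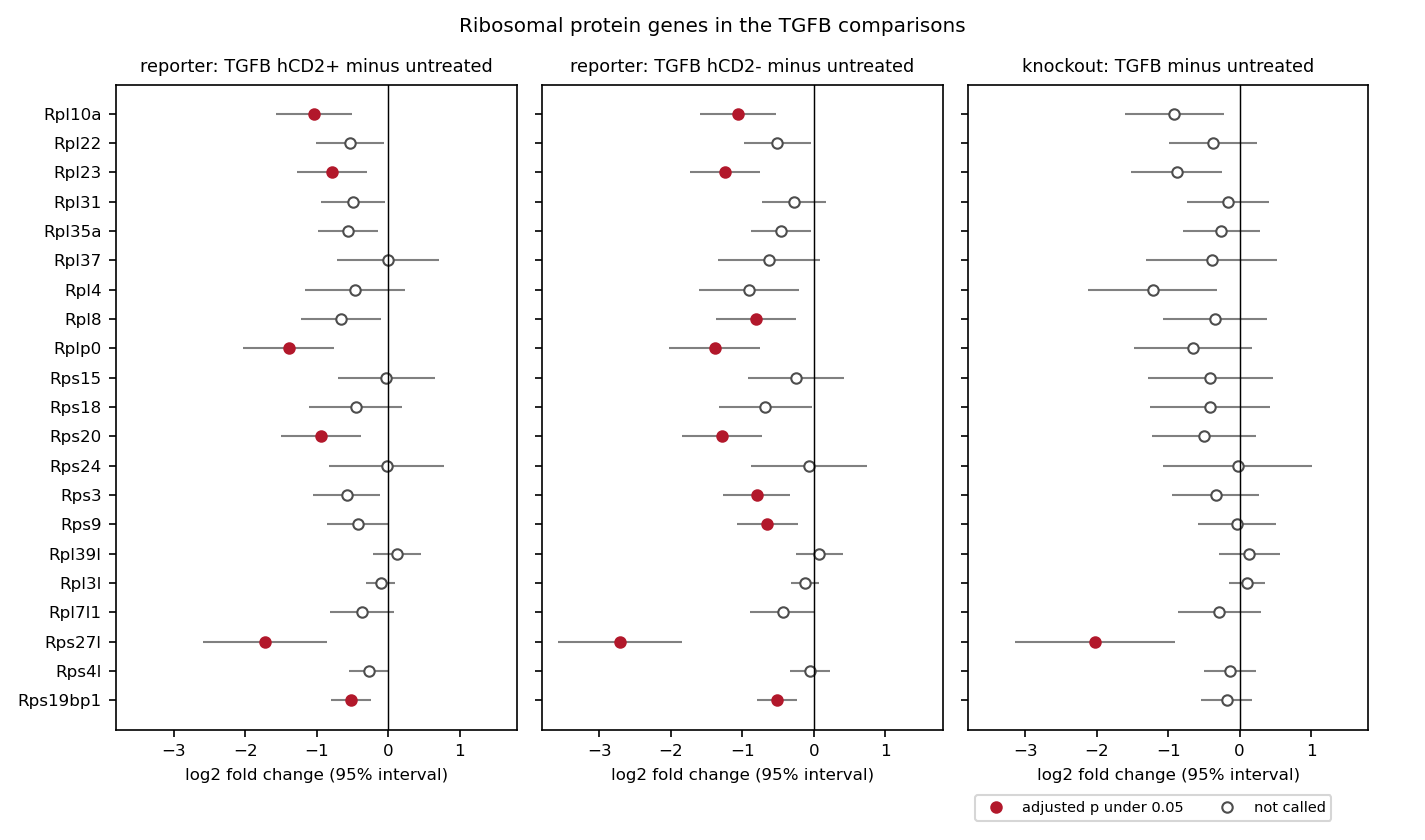
Log2 fold change (x axis, deposited log2 scale) of the 21 members with 95% intervals from limma, for hCD2+ and hCD2- TGFB-treated reporter cells against untreated reporter cells and for TGFB-treated against untreated knockout cells. Filled points have an adjusted p under 0.05, and the filled points number 6, 9 and 1, all left of 0.

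Rps27l encodes a paralogue of the small-subunit protein Rps27 and is known as a gene induced by p53. Its log2 values in untreated reporter cells were 7.52, 7.22, 8.07, 10.62 and 9.64 in replicates 1 to 5. In hCD2+ cells they were 6.11, 6.28, 4.73, 8.14 and 9.22. In hCD2- cells they were 5.1, 4.98, 3.33, 7.58 and 8.52. The ranges overlapped over all reporter arrays because study 2 lay higher than study 1 in every group, but within each study all TGFB arrays lay below all untreated arrays. The log2 fold change was -1.72 ± 0.41 (SE) in hCD2+ cells (3.29-fold lower, limma adjusted p = 0.00976) and -2.71 ± 0.41 in hCD2- cells (6.55-fold lower, limma adjusted p = 0.000164). Within study 1 alone the fold changes were -1.90 and -3.13, and within study 2 alone -1.45 and -2.08. Without the study term in the fit, Rps27l was called in neither reporter fraction. On hCD2- replicates 2 and 3 and hCD2+ replicate 3 the gene lay under the lower quartile of the array, where intensities are least reliable, so the size of the fold in study 1 is uncertain.

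In knockout cells Rps27l had log2 values of 10.19, 11.36 and 10.68 untreated and 7.99, 9.24 and 8.92 with TGFB, without overlap. The log2 fold change of -2.03 ± 0.53 (4.07-fold lower) passed narrowly (limma adjusted p = 0.0476). Leaving out any of the 6 knockout arrays ended the call, with limma adjusted p between 0.0541 and 0.257. Leaving out the study term also ended it. The difference between the reporter and the knockout response was 0.31 for hCD2+ cells (95% interval -1.11 to 1.72) and -0.69 for hCD2- cells (-2.10 to 0.73), and neither passed the test (limma adjusted p = 0.998 and 0.902). Intervals this wide do not show that the genotypes responded alike.

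Rplp0 forms the base of the stalk that recruits elongation factors to the ribosome. Its log2 values were 8.25, 7.68, 7.89, 6.99 and 7.08 in untreated reporter cells. They were 6.77, 6.88, 6.01, 4.9 and 6.37 in hCD2+ cells, all below the untreated arrays. In hCD2- cells they were 6.54, 7.21, 5.86, 4.97 and 6.37, and replicate 2 lay above both untreated arrays of study 2 but below those of its own study. The log2 fold change was -1.39 ± 0.30 in hCD2+ cells (2.62-fold lower, limma adjusted p = 0.00527) and -1.39 in hCD2- cells (limma adjusted p = 0.00377). Without the 4 narrow arrays the hCD2- value was -0.69 and was not called (limma adjusted p = 0.242), while the hCD2+ value was -1.25 (limma adjusted p = 0.00404). In knockout cells the values were 6.55, 6.85 and 7.41 untreated and 6.36, 6.39 and 6.1 with TGFB, without overlap, and the fold change of -0.65 was not called (limma adjusted p = 0.642). The genes of its stalk partners, Rplp1 and Rplp2, are not among the members.

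**Figure D2:**
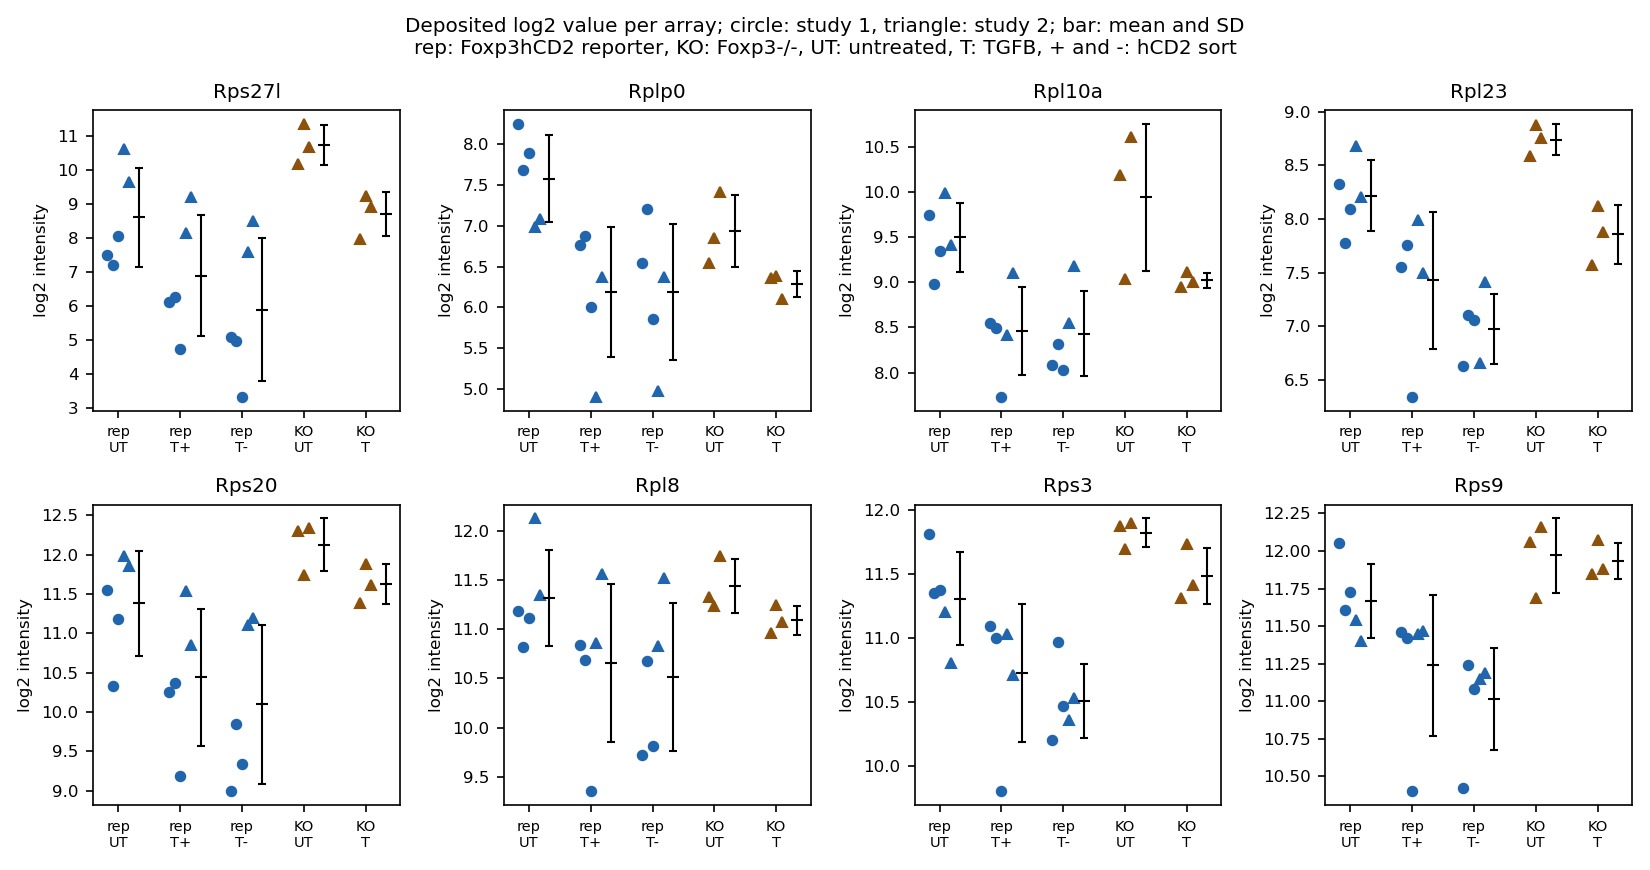
Deposited log2 intensity (y axis, a scale of its own in each panel) on every array for 8 members called in a reporter comparison. Circles are study 1 and triangles study 2, bars give the mean and SD of a group, and Rps27l ranges from 7.22 to 10.62 in untreated reporter cells and from 3.33 to 8.52 in hCD2- cells.

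Among the large-subunit genes, Rpl10a, whose product forms the L1 stalk at the site where tRNAs leave, and Rpl23, whose product lies at the face between the subunits and is also known to bind Mdm2, fell in both reporter fractions. Rpl10a had log2 values of 9.74, 8.98, 9.35, 9.99 and 9.41 in untreated reporter cells. It had 8.55, 8.49, 7.73, 8.42 and 9.1 in hCD2+ cells and 8.08, 8.32, 8.03, 8.55 and 9.18 in hCD2- cells. Only replicate 5 of each TGFB fraction reached above the lowest untreated array, that of replicate 2. The log2 fold changes were -1.04 ± 0.26 in hCD2+ cells (2.05-fold lower, limma adjusted p = 0.0114) and -1.06 in hCD2- cells (2.09-fold lower, limma adjusted p = 0.00707). Without the narrow arrays the hCD2- value was -0.78 and was not called (limma adjusted p = 0.224). In knockout cells untreated values of 10.18, 9.03 and 10.6 stood against 8.95, 9.11 and 9 with TGFB, a fold change of -0.92 that was not called (limma adjusted p = 0.204).

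Rpl23 had log2 values of 8.33, 7.78, 8.09, 8.68 and 8.2 in untreated reporter cells. Its values in hCD2- cells were 6.63, 7.1, 7.06, 6.66 and 7.41, all below the untreated arrays, and in hCD2+ cells 7.55, 7.76, 6.34, 7.99 and 7.5, with 1 array above the lowest untreated one. The log2 fold change was -1.24 ± 0.23 in hCD2- cells (2.37-fold lower, limma adjusted p = 0.00105) and -0.79 ± 0.23 in hCD2+ cells (1.73-fold lower, limma adjusted p = 0.0337). In hCD2+ cells the call was lost when any of 5 of the 10 compared arrays was left out (untreated replicates 1, 3 and 4, hCD2+ replicates 3 and 5), and with the replicate number as a block (limma adjusted p = 0.0505). In knockout cells Rpl23 had values of 8.59, 8.88 and 8.75 untreated and 7.57, 8.12 and 7.88 with TGFB, without overlap (fold change -0.88, limma adjusted p = 0.163).

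The other large-subunit genes gave smaller or less certain differences. Rpl8, which lies near the peptidyl transferase centre, had a log2 fold change of -0.81 in hCD2- cells (limma adjusted p = 0.0422), a call lost when any of 7 of the 10 arrays was left out (untreated replicates 1 to 4, hCD2- replicates 1, 3 and 4) and at -0.28 without the narrow arrays, and -0.66 in hCD2+ cells (limma adjusted p = 0.125). Rpl22, whose loss in mice blocks the development of alpha-beta T cells, had -0.54 and -0.51 in the hCD2+ and hCD2- comparisons (limma adjusted p = 0.141 and 0.122). Rpl35a had -0.56 in hCD2+ cells (limma adjusted p = 0.0787), with all 5 hCD2+ arrays below the 5 untreated ones. Rpl4, which lines the exit tunnel, had -0.91 in hCD2- cells (limma adjusted p = 0.0628, or 0.0465 with the replicate number as a block) and -1.22 in knockout cells (limma adjusted p = 0.187). Rpl37 and Rpl31 were not called in any comparison, and Rpl31 and Rpl4 belong to the 5 members among the dimmest genes, those of the lowest tercile by mean level, where an array resolves differences poorly.

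Of the 6 small-subunit genes, Rps20, a protein of the head of the subunit, was called in both reporter fractions, and Rps3 and Rps9, proteins at the mRNA entry channel, were called in hCD2- cells. Rps20 had log2 values of 11.55, 10.33, 11.18, 11.98 and 11.86 in untreated reporter cells. It had 8.99, 9.85, 9.34, 11.11 and 11.2 in hCD2- cells, below the untreated arrays within each study, and 10.25, 10.37, 9.18, 11.54 and 10.85 in hCD2+ cells, where study 1 overlapped. The log2 fold changes were -1.28 ± 0.27 in hCD2- cells (2.43-fold lower, limma adjusted p = 0.00256) and -0.94 ± 0.27 in hCD2+ cells (1.92-fold lower, limma adjusted p = 0.0279). The hCD2+ call was lost when any of 4 of the 10 arrays was left out (untreated replicates 1 and 3, hCD2+ replicates 3 and 5), and with the replicate number as a block (limma adjusted p = 0.0518). Without the narrow arrays the fold changes were -0.73 in hCD2+ and -0.95 in hCD2- cells, neither called (limma adjusted p = 0.0537 and 0.0576).

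Rps9 had log2 values of 12.05, 11.61, 11.73, 11.54 and 11.4 in untreated reporter cells and 10.42, 11.24, 11.08, 11.15 and 11.19 in hCD2- cells, without overlap. Its values in hCD2+ cells were 11.46, 11.42, 10.4, 11.45 and 11.47. The fold change was -0.65 in hCD2- cells (limma adjusted p = 0.0319, lost when any of 6 of the 10 arrays was left out, untreated replicates 1 to 3 and hCD2- replicates 1, 3 and 4, and 0.0512 with the replicate number as a block) and -0.43 in hCD2+ cells (limma adjusted p = 0.194). Rps3 had values of 11.81, 11.35, 11.37, 11.2 and 10.8 untreated, 10.2, 10.97, 10.47, 10.36 and 10.53 in hCD2- cells and 11.09, 11, 9.8, 11.03 and 10.71 in hCD2+ cells. Its fold changes were -0.80 (limma adjusted p = 0.0176, lost without untreated replicate 1 or hCD2- replicate 1) and -0.58 (limma adjusted p = 0.104). Without the narrow arrays the hCD2- fold changes were -0.44 for Rps9 and -0.52 for Rps3, neither called (limma adjusted p = 0.109 and 0.0880). In knockout cells the fold changes were -0.50 for Rps20, -0.34 for Rps3 and -0.037 for Rps9, none called. The remaining small-subunit genes Rps15, Rps18 and Rps24 were not called in any comparison, and the 95% interval of Rps24 in hCD2+ cells ran from -0.83 to 0.79.

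Rps9, Rps3, Rps20 and Rpl8 are among the brightest genes of these cells. The median percentile of Rps9 among the genes of an array was 99.8 in untreated reporter cells, 99.7 in hCD2+ cells and 99.7 in hCD2- cells. Those of Rpl8 were 99.6, 99.3 and 99.2, so that the falls given above left these genes close to the top of the arrays. Rps27l moved further in rank, from a median percentile of 76.0 in untreated reporter cells to 49.1 in hCD2+ and 22.3 in hCD2- cells, and in knockout cells from 97.4 to 85.8. Rplp0 moved from 72.3 to 47.0 and 47.7 in the reporter fractions.

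Of the 5 paralogues, Rps27l was called, and the other 4 were not called in any comparison. Rpl3l, known from heart and skeletal muscle, and Rpl39l, known from male germ cells, had means of 4.72 and 3.89 in untreated reporter cells, and their median percentile was at most 18.8 in any group. Their log2 fold changes lay between -0.12 and 0.13 in the reporter and knockout comparisons. Rpl7l1 had fold changes of -0.36, -0.44 and -0.29 in hCD2+, hCD2- and knockout cells, and Rps4l of -0.27, -0.052 and -0.14. No ordinary partner of a paralogue was measured alone, so the paralogues could not be set against their partners.

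Rps19bp1, which binds Rps19 and the deacetylase Sirt1, had untreated log2 values of 8.02, 7.8, 7.93, 8.06 and 7.86. Its values were 7.45, 7.68, 6.91, 7.45 and 7.59 in hCD2+ cells and 7.12, 7.41, 7.51, 7.47 and 7.58 in hCD2- cells, and both fractions lay wholly below the untreated arrays. The fold change was -0.52 ± 0.13 in each (limma adjusted p = 0.0135 in hCD2+ and 0.0100 in hCD2- cells). After quantile normalization it was -0.17 and -0.025 and was called in neither.

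The TGFB fractions of the reporter cells did not differ in a called member. Of the 21 members limma called 0 between hCD2+ and hCD2- cells, and 1 had an unadjusted p under 0.05, beside 0.0269% of all genes called lower and 0.128% called higher in hCD2+ cells. That member was Rps27l, 0.99 higher on the log2 scale in hCD2+ cells (95% interval 0.13 to 1.86, limma adjusted p = 0.994). The intervals of Rplp0 (-0.64 to 0.64) and Rpl10a (-0.51 to 0.56) leave room for differences of about the size of a called change in Rps19bp1. Between the responses of the genotypes 0 members were called for either fraction, with 0 at an unadjusted p under 0.05, beside 0% of all genes called for hCD2+ cells and 0.00673% called lower for hCD2- cells.

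The number of members called depended on how arrays were scaled. After quantile normalization of all arrays the medians over all genes moved to 0.035 in hCD2+ and 0.048 in hCD2- cells, and 9.36% of genes were called lower and 8.39% higher in hCD2+ cells, 11.6% and 11.3% in hCD2- cells. The members kept negative medians of -0.26 and -0.34. In hCD2+ cells 4 members were called lower, and all 4 were among the 6 called before: Rps27l (-1.47, limma adjusted p = 0.0180), Rplp0 (-1.15, limma adjusted p = 0.00807), Rpl10a (-0.68) and Rps20 (-0.61). In hCD2- cells 6 were called lower. Of these, 5 were among the 9 called before (Rps27l, Rplp0, Rpl23, Rps20 and Rpl10a), and Rpl4 was added (-1.03, limma adjusted p = 0.0402). In knockout cells Rps27l was called at -1.90 (limma adjusted p = 0.0267) and Rpl10a at -0.78 (limma adjusted p = 0.0450), beside 5.07% of all genes called lower and 5.77% called higher. No member was called higher after quantile normalization in these comparisons. With each array centred on its median, 5 members fell in hCD2+ cells, beside 7.71% of genes called lower and 4.54% higher. With the same centring 6 fell in hCD2- cells, beside 12.5% and 10.8%, and 1 in knockout cells, beside 2.41% and 1.93%.

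**Figure D3:**
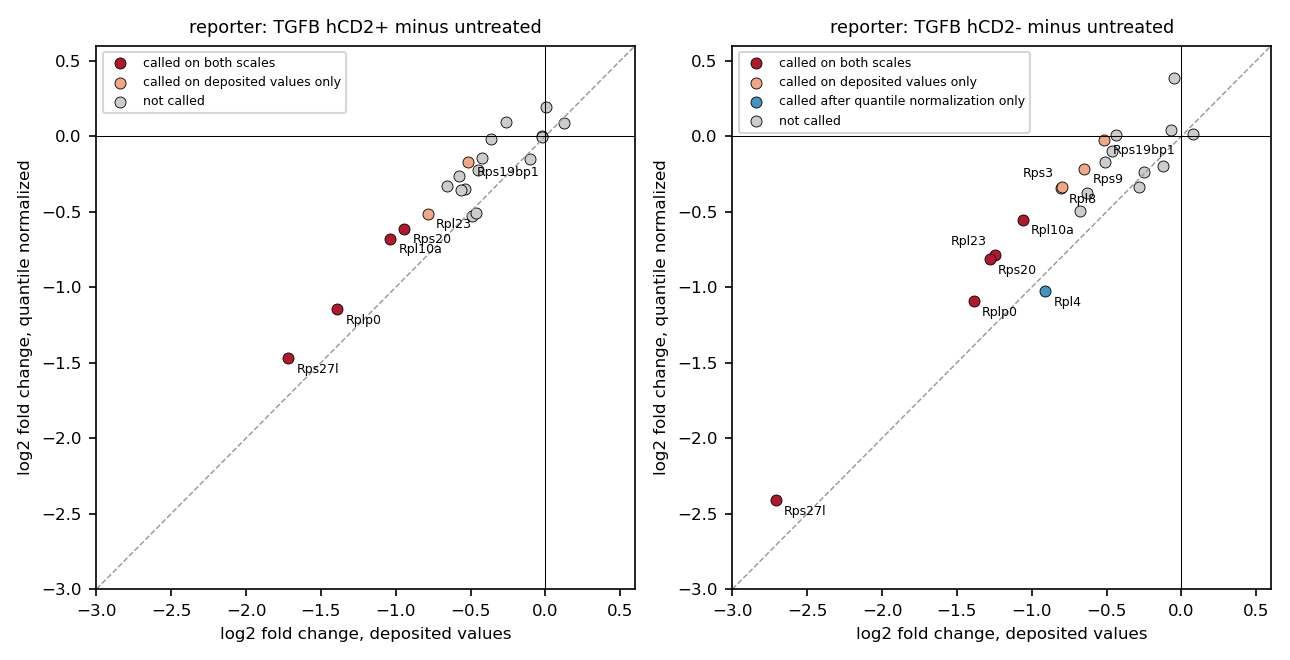
Log2 fold change of the 21 members on the deposited values (x axis) and after quantile normalization (y axis) for hCD2+ and hCD2- reporter cells against untreated cells. Most points lie above the dashed line of equality, and Rps27l, Rplp0, Rpl10a and Rps20 are called on both scales in both panels.

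The median level of the members stood 0.64 to 1.38 above the median of all genes (log2) on the untreated reporter arrays, 0.14 to 0.80 above it on hCD2+ arrays and 0.26 to 0.91 on hCD2- arrays. On knockout arrays it stood 0.65 to 1.06 above untreated and 0.41 to 0.56 with TGFB. The 4 narrow arrays had the lowest values of their groups, down to 0.14 on hCD2+ replicate 3. Without these 4 arrays 5 members were called lower in hCD2+ cells (all 5 among the 6), beside 7.47% of all genes. In hCD2- cells 2 were called lower (Rpl23 and Rps27l), and the share of all genes called lower fell from 16.9% to 4.81%. Only hCD2- replicates 2 and 5 remained there, so the loss of narrow arrays and the smaller number of arrays cannot be told apart.

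**Figure D4:**
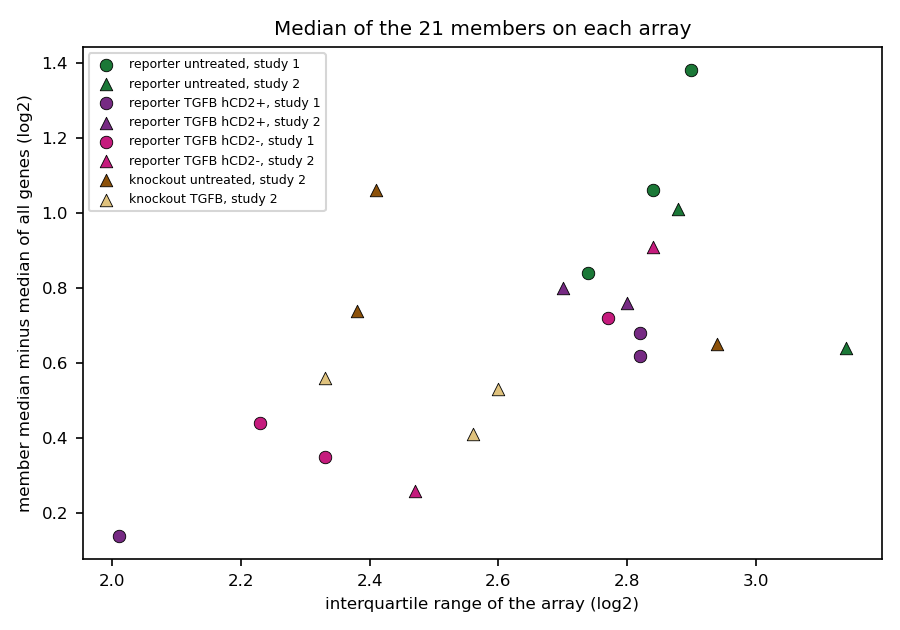
Median of the 21 members minus the median of all genes (y axis, log2) against the interquartile range of the array (x axis, log2), with 1 point per array, coloured by group and shaped by study. The 4 reporter arrays under 2.5 on the x axis lie between 0.14 and 0.44 on the y axis, and the other reporter arrays between 0.62 and 1.38.

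Arrays were also compared within each study, with no overlap asked for in both. In hCD2+ cells 6 members (Rpl10a, Rpl23, Rpl35a, Rplp0, Rps19bp1 and Rps27l) lay below the untreated arrays of both studies, beside 10.9% of all genes. In hCD2- cells 8 members (Rpl10a, Rpl23, Rplp0, Rps19bp1, Rps20, Rps27l, Rps3 and Rps9) did so, beside 16%. Over both studies together, the groups did not overlap for 3 members in hCD2+ cells and 3 in hCD2- cells, beside 6.46% and 9.04% of genes. In knockout cells 5 members (Rpl22, Rpl23, Rpl4, Rplp0 and Rps27l) lay below without overlap, beside 11.1% of genes. Fitted alone, study 1 gave 0 limma calls among the members in hCD2+ cells (8 at an unadjusted p under 0.05) and 2 in hCD2- cells (Rpl10a and Rps27l), beside 1.68% and 3.42% of all genes called lower. Study 2 gave 0 (7 at an unadjusted p under 0.05) and 1 (Rpl23), beside 1.12% and 2.67%, and 0 in knockout cells (5 at an unadjusted p under 0.05), beside 1.45%. These shares count genes called at an adjusted p under 0.05, so the counts at an unadjusted p cannot be set against them. Without the study term 3, 6 and 0 members were called lower in hCD2+, hCD2- and knockout cells (3 at an unadjusted p under 0.05 in knockout cells), beside 7.07%, 12.1% and 1.25%. With the replicate number as a block in place of study 4, 9 and 1 were called, beside 11%, 19.9% and 2.18%.

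Cd8a, a marker of CD8 T cells that some CD4 T cells also express, moved with part of these groups. Its log2 fold change was 2.44 in hCD2- cells (limma adjusted p = 6.82e-06) and 2.47 in knockout cells with TGFB (limma adjusted p = 0.000386), and 0.69 in hCD2+ cells (limma adjusted p = 0.117). The mean of the 2 CD8 T cell markers ranged from 7.54 to 8.29 in untreated reporter cells, 7.51 to 8.31 in hCD2+ cells and 8.23 to 9.71 in hCD2- cells, and Cd8b1 was called lower in both fractions. Of the 6 CD4 T cell markers, Thy1 was called lower in hCD2- cells (-1.11, limma adjusted p = 0.00355), and the list had medians of -0.26 in hCD2+ and -0.39 in hCD2- cells, with 5 of 6 below 0 in each. After quantile normalization Thy1 was called lower and Cd3e and Cd3g higher in both fractions, and the medians were 0.077 and 0.075. The part of these markers in the values of the members was not tested.

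Ribosomal protein genes, the members Rpl10a, Rpl31 and Rpl35a included, also stand in clusters shared with other symbols. For 15 of the 33 such clusters the other symbols were pseudogenes of the same gene or gene models without a name of their own, and these were tested among all 23332 clusters. Of the members, only Rpl31 has a cluster among these 15. In each reporter comparison 4 were called lower, those listing Rpl29, Rps13, Rpl14 and Rpl27a, and 0 higher, beside 6.99% of clusters called lower in hCD2+ cells and 12.3% in hCD2- cells. The fold changes in hCD2+ and hCD2- cells were -1.53 and -1.92 for the Rpl29 cluster, -1.39 and -1.19 for Rps13, -1.15 and -1.08 for Rpl14, and -0.77 and -1.13 for Rpl27a. In knockout cells limma called 0 of the 15, beside 1.07% called lower, with 4 at an unadjusted p under 0.05. These 4 were the clusters listing Rpl27a, Rpl31, Rps13 and Rps19, with fold changes from -1.06 (Rps13) to -0.49 (Rps19). The Rpl29 cluster, with a fold change of -0.60, was not among these 4. Rpsa, the laminin receptor protein of the small subunit, is not named by the rule, and its fold changes of -0.36, -0.34 and -0.53 in hCD2+, hCD2- and knockout cells were not called.

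Other genes of ribosome production were described by counts. Of 29 measured genes of ribosome assembly, 9 fell in hCD2+ and 12 in hCD2- cells and 0 rose, with medians of -0.64 and -0.52. Of all genes, 9.66% were called lower in hCD2+ cells and 16.9% in hCD2- cells. Among them Ncl, the abundant nucleolar protein nucleolin, fell by 0.75 and 0.76 on the log2 scale, and Nop56, of the box C/D particles that guide rRNA methylation, by 1.07 in each. After quantile normalization 10 of these 29 were called lower in hCD2+ cells, but 4 lower and 1 higher in hCD2- cells. On that scale 9.36% of all genes were called lower in hCD2+ cells, and 11.6% lower and 11.3% higher in hCD2- cells. In knockout cells limma called 0 of 29 on the deposited values (5 at an unadjusted p under 0.05), 29 of 29 lay below 0 and the median was -0.52, and 2 were called lower after quantile normalization. The shares of all genes called lower there were 1.85% on the deposited values and 5.07% after quantile normalization. Of 11 measured genes of other TOP mRNAs, such as elongation factors, 0 were called in hCD2+ cells (3 at an unadjusted p under 0.05) and 1 in hCD2- cells, Eef1b2 (-0.76, limma adjusted p = 0.0163). After quantile normalization 0 of these 11 were called in either fraction (1 and 2 at an unadjusted p under 0.05), and their median in hCD2+ cells moved from -0.32 to 0.036.

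Of 10 measured regulators of these genes, 3 fell in each reporter fraction and 0 rose. Of all genes, 9.66% were called lower in hCD2+ cells and 16.9% in hCD2- cells. Myc had log2 fold changes of -0.93 ± 0.23 in hCD2+ cells (limma adjusted p = 0.0133) and -1.36 ± 0.23 in hCD2- cells (limma adjusted p = 0.000532). Larp1 had -0.80 and -1.11, and Rps6kb2, which encodes an S6 kinase, -0.56 and -0.63. After quantile normalization Myc and Larp1 were called lower in both fractions, and Mtor, Rptor and Akt1s1 were called higher in hCD2- cells, where on the deposited values they were not called. In knockout cells limma called 0 of the 10 on the deposited values (1 at an unadjusted p under 0.05), beside 1.85% of all genes called lower. Of 68 mitochondrial ribosomal protein genes, which serve the separate ribosomes of mitochondria, 12 fell in hCD2+ cells, 35 in hCD2- cells and 0 in knockout cells (13 at an unadjusted p under 0.05). Their medians of -0.46, -0.58 and -0.30 lay beside the member medians of -0.49, -0.63 and -0.35. After quantile normalization 11 were called lower in hCD2+ cells, 18 lower and 2 higher in hCD2- cells, and 6 lower and 1 higher in knockout cells. On that scale 9.36%, 11.6% and 5.07% of all genes were called lower in hCD2+, hCD2- and knockout cells. Called higher were 8.39%, 11.3% and 5.77%.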

How the data were processed

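The authors deposited log2 intensities for 23332 transcript clusters. The submitters' processing notes name RMA, Affymetrix Expression Console 1.2 and mm8. Of these clusters, 14996 carried 1 symbol in the array annotation, and the highest-mean cluster per symbol left 14860 genes. All 21 members had 1 such cluster. The genotypes may have been normalized separately. Columns of other samples numbered 0. Arrays give no read depth, and their number limits the precision.

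Differences were tested, 2-sided, with limma 3.58.1 in R 4.3.3 on the deposited log2 values of all 21 arrays, with 5 group means and a study term. P-values were adjusted by Benjamini-Hochberg over all 14860 genes, and a gene was called when its adjusted p was under 0.05. Shares of all genes count called genes throughout. No share is given for counts at an unadjusted p under 0.05, which cannot be compared with all genes. Values with ± are SE of the log2 fold change. In simulated data for hCD2+ against untreated reporter cells, the fit over 14860 genes called 78% of changes of 1 and 99% of changes of 2 on the log2 scale, with 5 false calls. The simulated noise was independent between genes and arrays, without a study effect or narrow arrays. These rates may therefore not hold for the real arrays.

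The members and lists were chosen with earlier results of these data known. By the naming rule any member may be named. Array values were given for the 3 highest and 3 lowest called fold changes of a comparison and for Rplp0, and those of Rpl23 were added. Other genes are counted by list, with values for at most 5 per list, Foxp3 and Myc. The p53 target list, the clusters with several symbols and the overlap within studies were added after the data were seen. Markers were those of CD4 and CD8 T cells, B cells, dendritic cells and macrophages, NK cells, granulocytes and erythroid cells. Alternatives were no study term, a replicate block, quantile normalization, median centring, leaving out the lowest tercile by mean level, a trended and robust prior, each study alone, 4 narrow arrays left out, the lowest-mean cluster, and each array left out. Same-numbered untreated and TGFB reporter arrays deviated together (r from 0.117 to 0.512 over 10 pairs), but with study removed every such r was below 0 (-0.369 to -0.00817), and the 3 knockout pairs ranged from -0.182 to 0.58. Same-numbered hCD2- and hCD2+ arrays had r from 0.0977 to 0.8. With study removed r was -0.295 for replicate 1 and 0.404 to 0.706 for the other replicates. Between differently numbered hCD2- and hCD2+ arrays it then ran from -0.794 to 0.652, so high values were not confined to same-numbered pairs. These r values do not settle whether the numbers pair the fractions. The main fit did not pair them, and with the replicate number as a block limma also called 0 members between the fractions. Values with the replicate number as a block are given where they change a call. The correlation between arrays of a group was 0.926 to 0.991, and 0 pairs were identical. Promoter windows came from RefSeq (GRCm38.p6), not the build of the arrays.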

Additional observations from a re-analysis of the deposited data

Results flagged for a closer look

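A single array stood apart from the rest of its group in 6 of 66 sets of values examined (the 21 members and their median, each in 3 reporter groups), where chance alone marks about 1 in 20. On hCD2+ replicate 3, the array with the smallest interquartile range (2.01), 4 members lay far below the other hCD2+ arrays on the log2 scale. Rps9 was 10.4 there against 11.42 to 11.47 on the others, Rps24 was 4.27 against 5.93 to 6.53, Rps15 was 4.39 against 5.42 to 5.84, and Rpl7l1 was 7.09 against 7.67 to 7.87. On hCD2- replicate 1, Rps9 was 10.42 against 11.08 to 11.24. In untreated reporter cells, Rps24 was 4.5 on replicate 3 against 5.93 to 6.35.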

How the results depend on the processing

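Counts of called members are given against 6, 9 and 1 called lower in hCD2+, hCD2- and knockout cells. Without the study term limma called 3, 6 and 0, and Rps27l was called in none of these comparisons. Study 1 alone gave 0 and 2, and study 2 alone 0, 1 and 0. Quantile normalization gave 4, 6 and 2, median centring 5, 6 and 1, and leaving out the narrow arrays 5 and 2. The dim filter and the other prior left the counts at 6, 9 and 1. With the dim filter 14.3%, 25.7% and 2.62% of the 9909 genes left were called lower. With the other prior the shares were 9.48%, 16.4% and 1.86% of all genes. The lowest-mean cluster tests nothing here, since each member has 1 cluster that carries its symbol alone. With the replicate block in place of study the counts were 4, 9 and 1 (Rpl23 and Rps20 lost in hCD2+ cells, Rps9 lost and Rpl4 added in hCD2- cells); it changed no other call. Leaving out each array gave 4 to 6 in hCD2+ cells, 6 (without untreated replicate 1) to 11 (without hCD2- replicate 2) in hCD2- cells, and 0 to 1 in knockout cells, where the 1, without untreated replicate 2, was Rpl10a and not Rps27l. The share of all genes called was not counted with an array left out, so these ranges cannot be set against all genes. Between fractions and between the responses of the genotypes limma called 0 members under each alternative. Over single called members, 212 of 298 alternative values (the lowest-mean cluster not counted) kept the call, 86 fell short of it and 0 changed direction. In each reporter comparison in which they were called, Rps27l, Rplp0, Rpl10a and Rps19bp1 kept the call with any single array left out, but without the narrow arrays the hCD2- calls of Rplp0, Rpl10a and Rps19bp1 were lost. Member medians ranged from -0.49 to -0.26, -0.63 to -0.34 and -0.35 to -0.21 across the scalings. Causes of these shifts were not tested. Dim members (Rpl31, Rpl39l, Rpl3l, Rpl4, Rps15) limit what their values can show.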

Other observations

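Genes known as targets of p53, other than Rps27l, were listed after the values of Rps27l had been seen, and the list was described by counts with no test. Of 27 measured genes, 16 fell in hCD2+ cells, 18 in hCD2- cells and 10 in knockout cells with TGFB (limma), and 0 rose. The shares of all genes called lower were 9.66%, 16.9% and 1.85%. Median log2 fold changes were -0.93, -0.89 and -0.86, beside -0.066, -0.094 and -0.03 over all genes. After quantile normalization 15 fell and 2 rose in hCD2+ cells, 12 fell and 4 rose in hCD2- cells, and 13 fell and 2 rose in knockout cells. On that scale 9.36%, 11.6% and 5.07% of all genes were called lower, and 8.39%, 11.3% and 5.77% higher. Cdkn1a, which encodes the cell cycle inhibitor p21, had untreated reporter log2 values of 10.28, 9.92, 9.73, 11.51 and 10.11. Its values were 6.42, 6.11, 5.7, 6.98 and 6.63 in hCD2+ cells and 5.81, 5.68, 5.73, 6.23 and 6.28 in hCD2- cells. In knockout cells it had 11.03, 10.72 and 11.62 untreated and 7.43, 7.54 and 7.57 with TGFB. The groups did not overlap in either genotype, and the limma log2 fold changes were -3.94, -4.36 and -3.61. Plk2, a polo-like kinase, had log2 fold changes of -2.79 in hCD2+ cells, -3.31 in hCD2- cells and -1.91 in knockout cells. On hCD2- replicates 1 to 4 and on every TGFB knockout array Plk2 lay under the lower quartile of the array. Intensities are least reliable there, so the sizes of the hCD2- and knockout folds are uncertain.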
